A study of Homo sapiens with 4 samples.

Results

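The insulin-like growth factor (IGF) axis was examined in K562 cells, an established erythroid-like line from human chronic myeloid leukemia, through 10 genes chosen by family: the binding proteins IGFBP2, IGFBP3, IGFBP4, IGFBP5 and IGFBP6, the receptors IGF1R, IGF2R and INSR, and the receptor substrates IRS1 and IRS2. All 10 were found by NCBI gene number among the 25702 genes counted. IGFBP4 led to the choice of this axis because it was among the genes with the largest falls in these same libraries, so the differences of the members between groups are given as a description and not as tests. The cells were transfected with the LeGO-iG2 plasmid expressing the fusion RUNX1::ERG, which carries the DNA-binding domains of both partners, or with the empty LeGO-iG2 vector, and were otherwise untreated. Poly(A) RNA was sequenced from 2 biological replicates of each, and library totals ran from 59695387 to 82352144 counts. The paper describes the K562 transfection as transient and reports that its protocol reached most of the cells. Both groups are 1 cell line, and the sources used here do not say whether transfected cells were sorted before RNA was extracted. In such bulk RNA, fewer cells expressing a gene and less of its RNA per cell cannot be told apart.

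IGF1 and IGF2 are secreted hormones that signal mainly through IGF1R, a receptor tyrosine kinase closely related to the insulin receptor INSR. The activated receptors phosphorylate the docking proteins IRS1 and IRS2, which recruit PI3-kinase and lead to AKT and mTOR. IGF2R, also known as the cation-independent mannose 6-phosphate receptor, has no kinase and removes IGF2 from the cell surface. The IGF binding proteins hold IGFs outside the cell. IGFBP4 is mainly an inhibitor of IGF action that is cut by the protease PAPPA, and IGFBP5 also binds extracellular matrix.

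ERG and RUNX1, the parts of the fusion, were read first because they check the labels. ERG had 4 counts in each empty vector library against 80443 and 27218 in RUNX1::ERG replicates 1 and 2, and RUNX1 was at 78.6 and 49.0 against 786 and 400.2 normalised CPM (counts relative to the library total after TMM scaling). ERG was thus 2.52-fold and RUNX1 1.96-fold higher in RUNX1::ERG replicate 1 than in replicate 2, and reads of the fusion and of the cell's own genes are counted together. All 9 erythroid markers of K562 were detected in all 4 libraries, led by the embryonic globin HBE1 at 6394 to 8412 normalised CPM. Of these, TAL1 and EPOR rose in the quasi-likelihood test of edgeR (log2 fold changes of 0.68 and 0.87, adjusted p = 0.025 and 0.03), and the other 7 did not pass. KLF1 and TFRC were lower in the fit (-0.12 and -0.57), with TFRC at 709 and 1275 against 570.5 and 764 normalised CPM. Groups did not overlap, with RUNX1::ERG the higher, for 6 of the 9, against 25.1% of all genes tested. The summed level was 11150 and 11650 with the empty vector and 13690 and 12700 normalised CPM with RUNX1::ERG, and most of it came from HBE1 and HBG2. Of 8 stromal markers, LUM and POSTN were at 0 in every library and DCN had at most 8 counts, but COL1A1 rose (log2 fold change 2.42 ± 0.22, standard error or SE, edgeR adjusted p = 0.0002), and the summed level of the list was 6.53 and 7.45 normalised CPM with the empty vector and 25.2 and 22.6 with RUNX1::ERG. The other 7 stromal markers summed to 2.39 and 3.83 against 3.18 and 3.06 normalised CPM, and the 3 of them tested, COL1A2, PDGFRB and FBN1, did not pass, at log2 fold changes of 0.11, -1.09 and -0.42. Of 6 monocyte markers, CD14 and LYZ rose, at log2 fold changes of 3.24 and 1.12, with CD14 on 11 and 30 counts against 325 and 143. CSF1R, with 3 and 3 counts against 18 and 4, and FCN1, with 2 and 0 against none, were too low to test. MPEG1 and CD163 were at 0 throughout, and the summed level went from 7.24 and 10.4 to 22.1 and 20.8 normalised CPM. Of 7 lymphoid markers 3 were tested, of which CD3D alone had an unadjusted p under 0.05 in the edgeR fit (log2 fold change -0.61, adjusted p = 0.09), and the summed level was 35.0 and 36.3 against 22.9 and 25.1 normalised CPM, with MS4A1 at 0 throughout.

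IGFBP4 and IGFBP5 are the 2 members whose levels differed most between the groups, in opposite directions, and their promoters are shown for that reason. Each window runs 5′ to 3′ on the gene's strand, from 250 bases before to 50 bases after the start in RefSeq, at chr17:40443200-40443499 on the plus strand for IGFBP4 and chr2:216695500-216695799 on the minus strand for IGFBP5 in build GRCh38.p14. Capitals mark matches on either strand to TGTGGT, letters of the Runt domain motif, or to CGGAAG and AGGAAG, letters of the ETS domain motif.
IGFBP4: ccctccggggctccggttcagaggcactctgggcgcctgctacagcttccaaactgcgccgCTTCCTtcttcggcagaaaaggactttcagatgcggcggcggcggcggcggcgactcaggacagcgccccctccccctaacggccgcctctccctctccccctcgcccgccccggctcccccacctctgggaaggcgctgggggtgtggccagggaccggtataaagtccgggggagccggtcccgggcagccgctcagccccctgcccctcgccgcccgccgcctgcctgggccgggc
IGFBP5: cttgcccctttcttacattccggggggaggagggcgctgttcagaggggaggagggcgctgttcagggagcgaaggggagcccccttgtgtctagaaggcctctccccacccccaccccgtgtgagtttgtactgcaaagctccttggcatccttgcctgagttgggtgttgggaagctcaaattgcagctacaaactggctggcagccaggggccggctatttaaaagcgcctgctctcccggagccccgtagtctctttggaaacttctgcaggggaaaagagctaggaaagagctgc
The only match in either window is CTTCCT, the reverse complement of AGGAAG, which begins 189 bases before the IGFBP4 start. AGGAAG was found in 33.6%, CGGAAG in 19.5% and TGTGGT in 13.1% of the 35116 promoter windows of this length. The 10 members have 12 windows, 3 of them of IGFBP2, and 5 of the 12, or 41.7%, held an ETS match, against 46.9% of all windows, while none held TGTGGT.

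IGFBP4 (NCBI gene 3487, chromosome 17 of GRCh37, 38599702 to 38613977) was the main binding protein transcript of the empty vector cells. It had 2667 and 2606 counts in empty vector replicates 1 and 2 and 1012 and 550 in RUNX1::ERG replicates 1 and 2, which is 44.3 and 36.95 against 12.0 and 7.65 normalised CPM. Both RUNX1::ERG libraries lay well below both empty vector libraries. The means were 40.6 ± 5.18 and 9.83 ± 3.08 normalised CPM (SD, n = 2), a log2 fold change of -2.05 ± 0.24 (SE), or 4.13-fold lower. Between the RUNX1::ERG libraries, IGFBP4 was 1.57-fold higher in replicate 1, the library with more ERG.

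IGFBP5 (NCBI gene 3488, chromosome 2, 217536828 to 217560272, minus strand) was all but absent from the empty vector cells. It had 2 and 6 counts there, against 462 and 541 in RUNX1::ERG replicates 1 and 2, or 0.0332 and 0.0851 against 5.48 and 7.53 normalised CPM. The groups lay far apart, and the order of the RUNX1::ERG libraries was the opposite of that of IGFBP4, with replicate 2 at 1.37 times replicate 1. Summed over each group and scaled by library, the counts were 105-fold higher with RUNX1::ERG, with an exact 95% binomial interval from 53.1 to 244 that covers counting error alone. This fold rests on 8 empty vector counts. The fitted log2 fold change was 6.7 ± 0.48 (SE), and it was 7.54 without empty vector replicate 2. COL1A1, which like IGFBP5 is a known fibroblast product, was at 4.13 and 3.62 against 22.0 and 19.6 normalised CPM. The other tested stromal markers overlapped between the groups. COL1A2 was at 1.96 and 2.58 against 2.52 and 2.38, FBN1 at 0.266 and 0.581 against 0.344 and 0.292, and PDGFRB at 0.0664 and 0.511 against 0.083 and 0.195 normalised CPM. Of the markers too low to test, DCN was higher with RUNX1::ERG without overlap, on 4 and 2 counts against 8 and 8. COL3A1 overlapped, with 2 and 9 counts against 12 and 6, and LUM and POSTN were at 0. The part of other cells in the IGFBP5 difference was not tested.

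**Figure D1:**
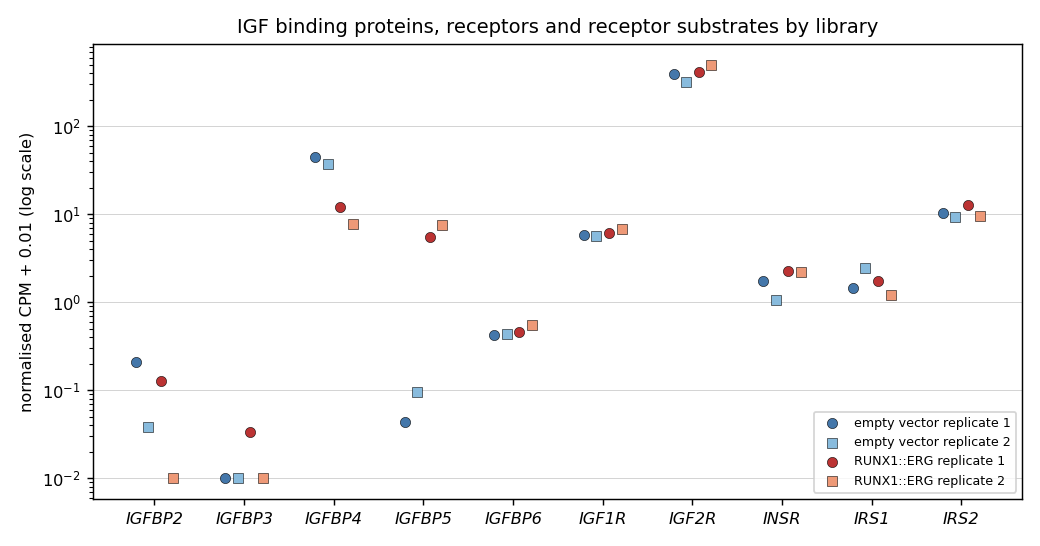
Normalised CPM + 0.01 of each member on a log axis, 1 point per library, with the empty vector in blue and RUNX1::ERG in red, and values at the foot of the axis standing for 0 counts. IGFBP4 is lower and IGFBP5 higher in both RUNX1::ERG libraries, IGFBP2 and IGFBP3 lie near or at 0, and the other 6 members differ far less.

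The remaining binding proteins were scarce. IGFBP6, which prefers IGF2, had 25 and 30 counts with the empty vector and 38 and 39 with RUNX1::ERG, and its log2 fold change was 0.24 ± 0.52 (SE). IGFBP2, the main binding protein of many fetal and tumor cells, had 12 and 2 counts against 10 and 0 and was not tested because of the filter on low counts. The pooled ratio was 0.598 with an exact 95% interval from 0.238 to 1.45, so no difference was detectable at this depth. IGFBP2 and IGFBP5 lie tail to tail on opposite strands with 7668 bases between them, and the large difference at IGFBP5 stood beside IGFBP2 libraries that overlapped. IGFBP3, the main carrier of circulating IGFs, had 2 counts in RUNX1::ERG replicate 1 and none elsewhere. Where no read was counted, up to 3 counts remain possible, or 0.0364 to 0.0503 CPM across the library sizes.

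Set per length, the binding protein transcripts differed between the groups in make-up as well as in sum. IGFBP4 made up 98.3% and 98.0% of the 5-gene sum in normalised CPM per kilobase of exon in empty vector replicates 1 and 2, and 81.8% and 68.9% in RUNX1::ERG replicates 1 and 2. IGFBP5 went from 0.0251% and 0.077% to 12.7% and 23.1%, and IGFBP6 from 1.51% and 1.85% to 5.03% and 8.002%. The sum itself was 20.4 and 17.1 with the empty vector and 6.66 and 5.04 with RUNX1::ERG. The IGFBP5 level therefore stayed below that of IGFBP4 in both RUNX1::ERG libraries, at 0.848 and 1.16 against 5.44 and 3.47 per kilobase.

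**Figure D2:**
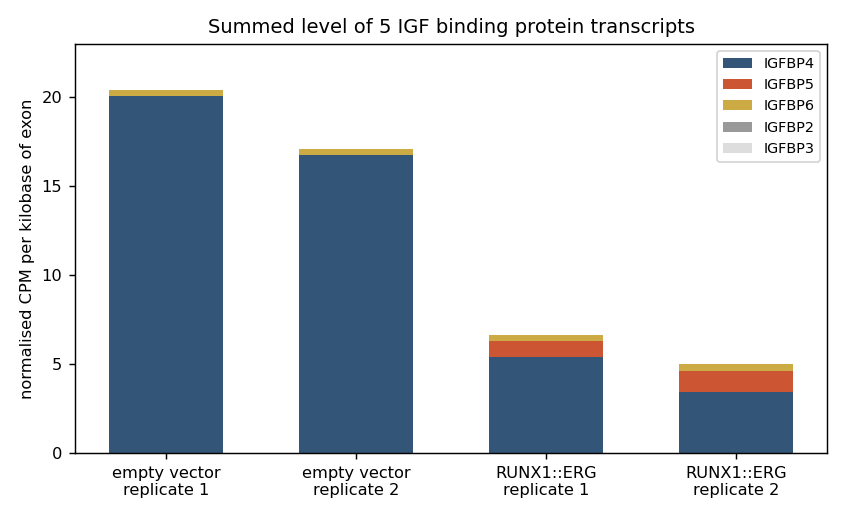
Stacked bars of normalised CPM per kilobase of exon for the 5 binding proteins, 1 bar per library, with the axis starting at 0. The bars of the RUNX1::ERG libraries, at 6.66 and 5.04, are under those of the empty vector libraries, at 20.4 and 17.1, and they alone show a visible IGFBP5 segment.

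The receptors were expressed at very different levels, and their differences between the groups were small beside those of IGFBP4 and IGFBP5. IGF2R, the scavenger receptor and the most abundant of them per length, was at 395 and 313.5 normalised CPM with the empty vector and 407 and 499 with RUNX1::ERG. Its groups did not overlap, but the gap between them was smaller than the spread within either (log2 fold change 0.36 ± 0.17 SE). The pseudogene CHP1P2 lies inside the IGF2R span, with 227 to 630 counts of its own. IGF1R, the main signaling receptor, was at 5.80 and 5.59 against 6.03 and 6.86 normalised CPM, a log2 fold change of 0.18 ± 0.25 (SE). INSR was at 1.71 and 1.05 against 2.23 and 2.21 normalised CPM, on 74 to 188 counts. Its groups did not overlap, but the empty vector libraries differed from each other by more than the gap between the groups. The log2 fold change of 0.69 ± 0.37 (SE) was the largest among the receptors. The pooled ratio was 1.641, with an exact 95% interval from 1.365 to 1.978 that covers counting error alone.

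Of the substrates, IRS2 was at 10.4 and 9.32 normalised CPM with the empty vector and 12.85 and 9.58 with RUNX1::ERG, and the groups overlapped. IRS1 was at 1.43 and 2.43 against 1.74 and 1.21 normalised CPM, overlapping as well, and the sign of its log2 fold change of -0.38 turned to 0.05 without empty vector replicate 2. That of IRS2, at 0.19, was -0.04 without RUNX1::ERG replicate 1.

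In the fit over all genes, 4.79% of the 15394 genes tested passed the threshold of 0.05 on the adjusted p, 3.64% higher and 1.15% lower with RUNX1::ERG. Of the 8 members tested, IGFBP5 was called higher and IGFBP4 lower, and the other 6 were not called. Groups did not overlap for 6 of the 8, 5 higher and 1 lower, against 47.2% of all genes tested, 25.1% higher and 22.1% lower. Since the choice of members used this contrast, nothing is read from these counts. With 2 libraries a group, the smallest two-sided p of an exact permutation test is 0.333, so each adjusted p here draws on the variance shared between genes in the edgeR fit.

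**Figure D3:**
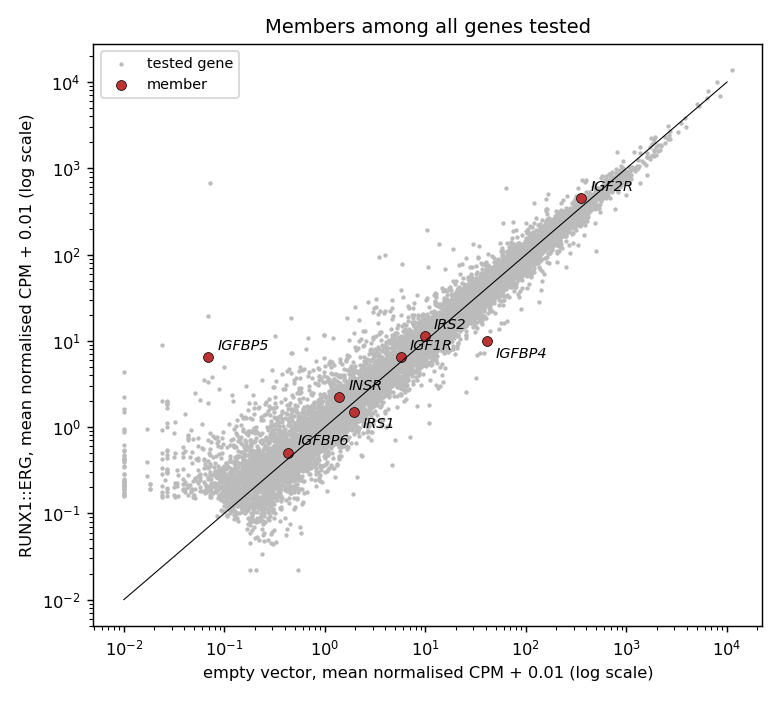
Mean normalised CPM + 0.01 of each tested gene with the empty vector (horizontal) and with RUNX1::ERG (vertical), on log axes, with the 8 tested members in red and a line of equal levels. IGFBP5 lies far above the line, at 0.0592 against 6.503, IGFBP4 lies below it, at 40.6 against 9.83, and the other 6 lie close to it.

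The order of the members per length changed at the top and in the middle. With the empty vector, IGFBP4 at 18.4 and IGF2R at 15.7 normalised CPM per kilobase came first, and their libraries overlapped. IRS2 followed at 1.21, then IGF1R at 0.408, IGFBP6 at 0.312, IRS1 at 0.192 and INSR at 0.127, of which IRS1 and INSR overlapped. IGFBP2, IGFBP5 and IGFBP3 were at 0.024 or below. With RUNX1::ERG, IGF2R came first at 20.0, then IGFBP4 at 4.46, IRS2 at 1.38 and IGFBP5 at 1.01, so that IGFBP5 moved from place 9 to place 4 and passed IGF1R (0.462), IGFBP6 (0.369), INSR (0.205) and IRS1 (0.147). IRS2 and IGFBP5 nearly touched, with a lowest IRS2 library at 1.18 and a highest IGFBP5 library at 1.16. With the longest transcript as the length, IGF2R came before IGFBP4 in the empty vector cells too, at 24.9 against 18.4 per kilobase.

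Of the ligands, IGF1 was the one detected. It had 616 to 815 counts, at 12.3 and 8.74 normalised CPM with the empty vector and 8.67 and 11.3 with RUNX1::ERG, with overlapping groups and a log2 fold change of -0.07 ± 0.25 (SE). INS and IGF2 were at 0 in all 4 libraries. IGFALS, which joins complexes of IGFs with their carriers in plasma, was at 1.20 and 0.44 against 0.842 and 0.459 normalised CPM. IGFBP1 and IGFBP7 had at most 10 counts and 2 counts in a library, and IGFBPL1, IRS4 and PAPPA2 had none.

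Of the remaining genes of the ligand and regulator list, STC2 fell and the other tested genes did not pass the threshold. STC2, a secreted glycoprotein that inhibits PAPPA, was at 60.8 and 16.1 normalised CPM with the empty vector and 7.354 and 6.997 with RUNX1::ERG, a log2 fold change of -2.42 ± 0.47 (SE, edgeR adjusted p = 0.015) that was -1.17 without empty vector replicate 1 and -3.08 without replicate 2. With limma voom the call was lost (-2.1, adjusted p = 0.056). PAPPA, the IGFBP4 protease, was at 1.21 and 1.05 against 1.38 and 1.46 normalised CPM, with a log2 fold change of 0.33 ± 0.38 (SE). STC1, the other stanniocalcin, was at a log2 fold change of -0.69 ± 0.39 (SE). HTRA1, a secreted serine protease that can cut binding proteins, had 10 and 0 counts against 28 and 37, with a log2 fold change of 2.39 ± 0.99 (SE, edgeR adjusted p = 0.23). It passed without a filter on low counts (2.37, adjusted p = 0.049). Without empty vector replicate 2 the value was 1.34, and without replicate 1, where the remaining empty vector library has no counts, the fit gave 8, a value that depends on the prior count. INSRR, an alkali sensor of the insulin receptor family, had 53 and 35 counts against 181 and 87, with a log2 fold change of 1.29 ± 0.47 (SE, edgeR adjusted p = 0.16) that was 1.75 without empty vector replicate 1. The IGF2 mRNA-binding proteins did not pass the threshold. IGF2BP1 was at 277 and 277 against 265 and 289, IGF2BP2 at 102 and 103 against 79.6 and 88.5, and IGF2BP3 at 148 and 146 against 128.5 and 157 normalised CPM.

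**Figure D4:**
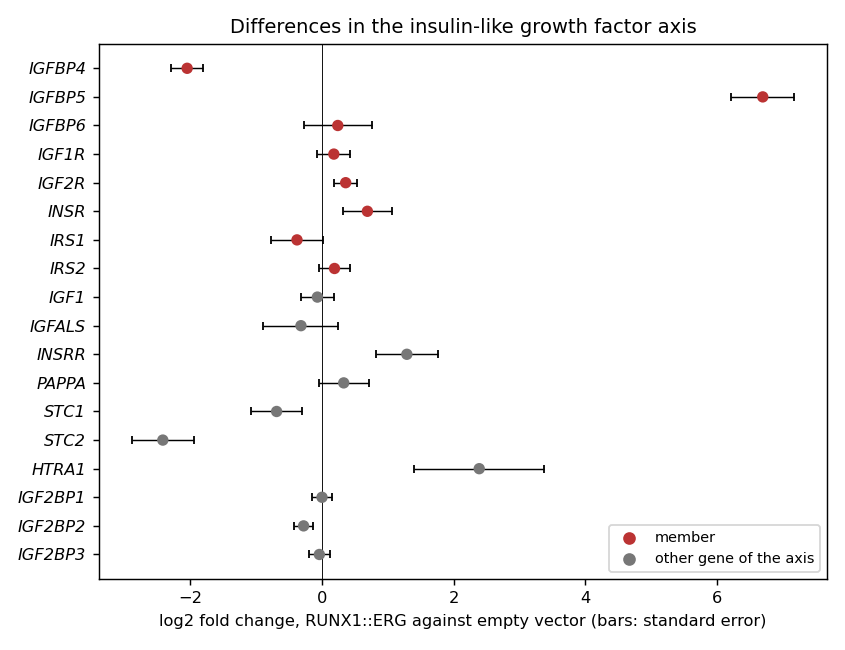
Log2 fold changes of RUNX1::ERG against the empty vector with standard errors, for the 8 tested members in red and the 10 tested genes of the ligand and regulator list in grey. IGFBP5 at 6.7 and IGFBP4 at -2.05 lie farthest from 0 among the members, and HTRA1 at 2.39 and STC2 at -2.42 among the others.

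Of 69 genes on 3 lists of the insulin and IGF pathway, 60 were tested, of which 1 rose, 3 fell and 56 did not pass, against 3.64% higher and 1.15% lower among all genes tested. An unadjusted p under 0.05 in the edgeR fit was found for 18 of the 60, or 30%, against 18% of all genes tested. Groups did not overlap for 19 genes that were higher and 11 that were lower, and for the other 30 they overlapped. Among all genes tested, 47.2% did not overlap, 25.1% higher and 22.1% lower, so the lists lay near that share. The median log2 fold change was 0.02 over genes that differed in both directions, and 0 over all genes tested. These lists were written with earlier results of these data known, so nothing is read from their counts and shares. Among 30 adaptors and kinases, all tested, PIK3R3, a regulatory subunit of PI3-kinase, rose from 17.7 and 21.7 to 33.9 and 37.4 normalised CPM (log2 fold change 0.86 ± 0.19 SE, edgeR adjusted p = 0.03). EIF4EBP1, the translation repressor that mTOR inactivates, fell from 150.5 and 89.8 to 68.9 and 56.4 normalised CPM (log2 fold change -0.94 ± 0.23 SE, edgeR adjusted p = 0.045). The call of EIF4EBP1 was lost without empty vector replicate 1 (-0.52, adjusted p = 0.16) and without RUNX1::ERG replicate 1 (-1.09, adjusted p = 0.051), as well as with library totals (adjusted p = 0.077) and limma voom (adjusted p = 0.06), and that of PIK3R3 without empty vector replicate 1 (0.71, adjusted p = 0.055), RUNX1::ERG replicate 1 (0.92, adjusted p = 0.083) or RUNX1::ERG replicate 2 (0.77, adjusted p = 0.087). The genes of this list with the highest mean CPM were the phosphatase PTPN11, MTOR and the kinases AKT1 and AKT2, with log2 fold changes of -0.12, 0.01, 0.11 and -0.28, none past the threshold.

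Of 22 negative regulators, 20 were tested and SOCS3, an inhibitor of cytokine and insulin signaling, fell from 46.7 and 40.3 to 26.9 and 19.4 normalised CPM (log2 fold change -0.91 ± 0.21 SE, edgeR adjusted p = 0.031). Without RUNX1::ERG replicate 2 its call was lost (-0.71, adjusted p = 0.13), and likewise with library totals (-0.87, adjusted p = 0.055). The other 19 did not pass. GRB10, an adaptor that restrains IGF1R and INSR, was at 174 and 98.9 against 66.0 and 79.0 normalised CPM (log2 fold change -0.91 ± 0.24 SE, edgeR adjusted p = 0.058). Those with the highest mean CPM were DDIT4, TXNIP, INPPL1 and SH2B3. DDIT4, a stress-induced brake on mTOR, was at 888 normalised CPM in empty vector replicate 1 and at 87.0 to 134 in the other 3 libraries. Its log2 fold change of -2.17 ± 0.67 (SE, edgeR adjusted p = 0.099) was 0.02 without that library, and it passed without empty vector replicate 2 (-3.01, adjusted p = 5.8e-47) and without RUNX1::ERG replicate 2 (-1.9, adjusted p = 5e-05). TXNIP, INPPL1 and SH2B3 had log2 fold changes of -0.03, 0.28 and 0.19. TRIB3 and SESN2, stress-induced inhibitors of AKT and mTOR signaling, stood apart in empty vector replicate 1, 3.88-fold and 4.61-fold above empty vector replicate 2. STC2 was 3.78-fold and DDIT4 8.19-fold above it, against 1.20-fold for IGFBP4.

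Of the 4 nearest tested genes around IGFBP4, GJD3 and TNS4 fell and TOP2A and CCR7 did not pass the threshold. Among all genes tested, 1.15% were called lower with RUNX1::ERG, and 22.1% were lower without overlap. Whether the genes around IGFBP4 fell together was not tested. The nearest tested genes on the side of its start were TOP2A at 25.6 kb and GJD3 at 78.7 kb. TOP2A, the mitotic DNA topoisomerase, was at 527 and 540.0 against 497.5 and 604 normalised CPM, with overlapping groups. GJD3, a connexin, fell from 15.5 and 13.6 to 6.11 and 4.65 normalised CPM (log2 fold change -1.43 ± 0.24 SE, edgeR adjusted p = 0.0075). Beyond its end, TNS4, a tensin at 18.1 kb, fell from 4.27 and 5.06 to 0.166 and 0.543 normalised CPM (log2 fold change -3.73 ± 0.5 SE, edgeR adjusted p = 0.002). CCR7, a chemokine receptor at 96 kb, had 107 and 100 counts against 67 and 28, with a log2 fold change of -1.42 ± 0.46 (SE) that did not pass (edgeR adjusted p = 0.12).

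**Figure D5:**
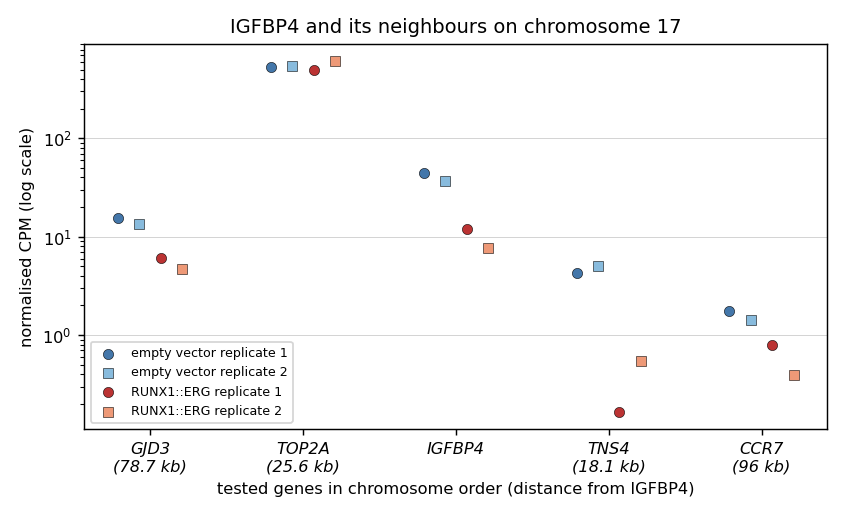
Normalised CPM on a log axis of IGFBP4 and the 2 nearest tested genes on either side, in chromosome order, 1 point per library, with the distance from IGFBP4 under each name. GJD3, IGFBP4, TNS4 and CCR7 are lower in both RUNX1::ERG libraries, and TOP2A overlaps between the groups.

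The genes whose values over the 4 libraries were closest to those of IGFBP4 were found among 9137 others with a mean of at least 10 CPM, by the Euclidean distance between log2 values centred on each gene's mean. They were EPHB6, an Eph receptor without kinase activity, RCSD1, the transcriptional repressor HES1, NAT8L, which makes N-acetylaspartate, and FAM178B, at distances of 0.64, 0.65, 0.76, 0.85 and 0.90. Since they were picked for this pattern, their log2 fold changes of -1.76, -1.94, -1.46, -1.33 and -1.88 are a description. Like IGFBP4, their groups did not overlap, with RUNX1::ERG the lower, but RCSD1, EPHB6 and FAM178B were lower in RUNX1::ERG replicate 1 than in replicate 2, the reverse of IGFBP4. EPHB6, for example, was at 42.0 and 45.8 against 12.8 and 13.1 normalised CPM.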

How the data were processed

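The 4 libraries, 2 per group, were each deposited by the authors as unnormalised read counts by NCBI gene number, and their processing notes name HISAT2 2.2.1, featureCounts 2.0.1 and hg19. The annotation and the strand setting are not given in the sources used here, so antisense and overlapping genes are uncertain. Between 66.7% and 68.9% of counts from 1 to 10 were even, as when each mate is counted by itself, so counting intervals and limits are too narrow. Symbols came from a RefSeq table of GRCh38.p14, which matched 92.2% of genes, and positions and exon lengths from GENCODE v44 on GRCh37. In R 4.3.3, edgeR 4.0.16 filtered low counts (filterByExpr), scaled libraries by TMM and fitted all genes by quasi-likelihood, and p was adjusted after Benjamini and Hochberg over every gene tested (threshold 0.05). Standard errors are the log2 fold change divided by the square root of F. The labels do not say whether replicates are separate cultures, and p-values measure only the spread between these libraries. Fits were checked on simulated data. DESeq2 1.42.0, limma 3.58.1 voom, other scalings and filters, halved counts, a replicate block and leaving out each library were alternatives.

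The members and lists were chosen with earlier results of these data known. Named genes were the members, pathway genes past the threshold, all genes of the ligand list, the 4 genes of highest mean CPM of the adaptor and the negative regulator lists, the 5 genes most like IGFBP4 and the 2 tested genes on either side of it. GRB10, TRIB3, SESN2 and the single marker genes were picked after their values were seen.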

Additional observations from a re-analysis of the deposited data

How the results depend on the processing

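IGFBP4 was lower and IGFBP5 higher in every fit that tested them. All these fits use the libraries in which IGFBP4 was chosen for its fall, so they are no independent support. IGFBP5 passed the main filter through its counts in the RUNX1::ERG libraries. Over the alternatives with all libraries, IGFBP4 ran from -2.08 to -2.01 and IGFBP5 from 6.66 to 6.74, and with each library left out, where the lone library is assumed to vary like the other group, from -2.41 to -1.77 and from 6.22 to 7.54. With at least 10 counts in every library IGFBP5 is not tested, which leaves 1 member called instead of 2. Over the whole table, 560 genes were higher and 177 lower. Without a filter the numbers were 962 and 538, with the replicate block 1082 and 651, and the lower calls were 103 with library totals and 398 with the DESeq2 Wald test. With a library left out they ran from 228 to 922 and from 58 to 602, both lowest without RUNX1::ERG replicate 1. Without empty vector replicate 1 they were 922 and 305, and 602 were lower without empty vector replicate 2. In the wider pathway lists the 1 higher call became 3 without a filter, 2 with the DESeq2 Wald test and 7 with the block, and ran from 0 to 3 with a library left out. The 3 lower calls became 1 with library totals or voom, 7 without a filter and 5 with the block, and ran from 2 to 8. The causes were not tested.

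The numbers of the replicates were not treated as pairs, since no label ties them to a batch, and the deviations of same-numbered libraries correlated at r = 0.27 over genes. All 4 pathway calls were kept with the block and 8 were gained, which were SHC1, INSRR, DDIT4, SESN3, INPP5D, PIK3CB, PIK3R1 and GRB10, with adjusted p from 0.029 to 0.049. INSRR (edgeR adjusted p = 0.035) and DDIT4 (edgeR adjusted p = 3.5e-31) also passed without a filter. The DDIT4 value goes with overlapping groups and with empty vector replicate 1 standing apart, so it is not read as a difference between the groups. DDIT4 did not pass with the DESeq2 Wald test (adjusted p = 0.34) or limma voom (adjusted p = 0.31). Near 0, the sign of IGF2BP1 turned with library totals (0.04), at least 10 counts in every library (0) and halved counts (0.01), that of MTOR with DESeq2 size factors, no filter and voom (0 in each) and the Wald test (-0.01), and that of TXNIP with voom (0.06) and the block (0.05). With a library left out, the log2 fold change ran from -0.72 to 0.05 for IRS1, from -0.04 to 0.37 for IRS2, from -0.3 to 0.19 for IGF1, from -0.87 to 0.56 for IGFALS, from -0.08 to 0.06 for IGF2BP1, from -0.21 to 0.09 for IGF2BP3, from -0.31 to 0.04 for PTPN11, from -0.17 to 0.16 for MTOR, from -3.01 to 0.02 for DDIT4 and from -0.45 to 0.56 for TXNIP. By Pearson correlation in place of distance, none of the 5 genes most like IGFBP4 was shared, and 81 genes had an r over 0.99 across the 4 libraries.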

Other observations

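Of the secreted CCN proteins and other genes that carry an IGF binding protein domain, looked at after the main results were seen, CCN1 and KAZALD1 were tested. CCN1, a matrix-associated signaling protein, was at 2.72 and 3.87 normalised CPM with the empty vector and 3.78 and 3.31 with RUNX1::ERG, with overlapping groups and a log2 fold change of 0.1 ± 0.31 (SE). KAZALD1 was at 5.13 and 3.62 against 3.20 and 3.07 normalised CPM, a log2 fold change of -0.48 ± 0.3 (SE, edgeR adjusted p = 0.46). CCN2, CCN4, CCN5, CCN6 and ESM1 had at most 10 counts in a library, and CCN3 had none.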
